A study of Mus musculus with 4 samples.

Results

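A set of 10 calcium-binding, lectin and cytoskeletal genes was followed through germinal center (GC) B cells of the mouse spleen: S100a4, S100a6, S100a10, S100a11, Anxa2, Lgals1, Lgals3, Vim, Ahnak and Capg. They are 10 of the 32285 genes in the expression tables, and all 10 were present in both tables. The genes were chosen by their measured levels across the B cell states of these same libraries, so their levels by state are given as a description with no test. How the genes vary with Dock8 genotype and between the sorted populations was tested across all genes. Earlier results of these data were known when the genes were chosen, so these tests cannot be taken as independent of the choice.

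MD4 B cells express an immunoglobulin transgene specific for hen egg lysozyme (HEL). The CD45.2+ MD4 cells carried a B cell-restricted BCL2 transgene (BCL2.Tg) as well, with Dock8 either wt/wt or, in the DOCK8-deficient donors, cpm/cpm. They were mixed with CD45.1+ MD4 cells, Dock8 wt/wt and without BCL2.Tg, and the mixture was given to CD45.1+ wild-type recipients that then received HEL-coupled sheep red blood cells as antigen. On day 8, splenic HEL+CD95+ cells were sorted into a CD45.2+ and a CD45.1+ pool of 6 hashtag-labeled mice, 3 per genotype group, and each pool became 1 droplet 3′ mRNA library and 1 hashtag library. The control CD45.1+ cells are therefore Dock8 wt/wt in every mouse, and they were grouped by the genotype of the CD45.2+ cells that shared their host. Donors were adult, age-matched C57BL/6-background mice, and the study used animals of both sexes. The study's notes give Dock8 wt/wt CD45.2+ donor cells as male and Dock8 cpm/cpm cells as female, so genotype and donor sex cannot be told apart. The sorts differ in CD45 allotype, in BCL2.Tg and in library, and these cannot be told apart either. Because the recipients were CD45.1+ as well, HEL binding was the part of the gate that set CD45.1+ donor cells apart from host B cells.

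S100 proteins are small EF-hand calcium sensors that act by binding other proteins. S100A10 is the exception that no longer needs calcium, and it pairs with annexin A2 (Anxa2) in a complex that bridges membrane phospholipids and actin and that binds the giant scaffold AHNAK. Galectins 1 and 3 (Lgals1, Lgals3) bind β-galactosides on glycoproteins, vimentin (Vim) builds type III intermediate filaments, and CAPG, a gelsolin relative, caps the growing ends of actin filaments. In B cells, several of these genes are known as markers of migratory, activated or memory-like states as opposed to the GC itself.

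In the GRCm38 annotation the 4 S100 genes lie in 2 close pairs on the plus strand of chromosome 3. S100a4 (90603771 to 90606045) ends 6.84 kb before S100a6 (90612882 to 90624181), and S100a11 (93520488 to 93526287) ends 28.8 kb before S100a10 (93555080 to 93564643). The other 6 genes stand alone on chromosomes 2 (Vim), 6 (Capg), 9 (Anxa2), 14 (Lgals3), 15 (Lgals1) and 19 (Ahnak). RefSeq promoter windows, from 250 bases before to 50 bases after the start, matched 8 of the 10 genes. The windows of 3 genes are shown because S100a6 and Ahnak followed each other closely across the B cell states described next, whereas Anxa2 followed neither. Capitals mark the letters CCNCNCCC (the core bound by KLF and SP factors), CCAAT or TATAAA on either strand, and neighboring matches may overlap. All 3 sequences are from GRCm38.p6, plus strand.
S100a6, chr3:90612644-90612943: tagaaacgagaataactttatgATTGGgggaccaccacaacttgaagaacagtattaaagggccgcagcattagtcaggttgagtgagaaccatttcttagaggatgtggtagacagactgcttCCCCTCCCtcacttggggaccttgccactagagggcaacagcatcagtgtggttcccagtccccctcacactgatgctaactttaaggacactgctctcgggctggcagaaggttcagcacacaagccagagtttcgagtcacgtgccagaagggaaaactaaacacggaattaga
Ahnak, chr19:8989034-8989333: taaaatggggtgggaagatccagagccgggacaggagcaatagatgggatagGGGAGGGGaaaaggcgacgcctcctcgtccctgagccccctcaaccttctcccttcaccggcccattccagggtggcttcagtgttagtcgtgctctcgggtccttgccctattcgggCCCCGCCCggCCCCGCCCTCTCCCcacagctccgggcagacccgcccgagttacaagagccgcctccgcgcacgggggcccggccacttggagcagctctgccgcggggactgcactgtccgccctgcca
Anxa2, chr9:69453433-69453732: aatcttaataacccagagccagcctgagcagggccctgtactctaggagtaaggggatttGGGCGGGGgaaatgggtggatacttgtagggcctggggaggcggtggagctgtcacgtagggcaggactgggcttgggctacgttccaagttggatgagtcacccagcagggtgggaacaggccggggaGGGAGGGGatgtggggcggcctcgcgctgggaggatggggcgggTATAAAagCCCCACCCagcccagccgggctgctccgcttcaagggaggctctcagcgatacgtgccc
The CCNCNCCC letters stand in 7 of the 8 windows and in 49.5% of all 32851 RefSeq windows of this length. CCAAT was found in 3 of 8 windows and in 37.4% of all windows, and TATAAA in 3 of 8 and in 13.6%. A match describes the letters only.

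After hashtag assignment, 6488 CD45.2+ and 3204 CD45.1+ cells were kept, of 24241 and 5232 mRNA barcodes. The Dock8 cpm/cpm CD45.2+ cells were few, with 57, 44 and 101 cells per mouse, and their number depended on the hashtag rule. A rule that asks for a 3-fold lead of the top hashtag gave 229, 160 and 481, and hashtags normalized over each cell gave 302, 145 and 468. The sorts shared 38 barcodes, 6 of them among the kept cells. Dock8 mRNA was at 83.5 to 99.1 CPM in the CD45.2+ wt/wt mice and 95.7 to 105 CPM in the cpm/cpm mice, whose ranges overlapped, so its level does not check the genotype labels. Cells were clustered with the 10 genes left out, and clusters were named from marker lists that did not hold them. The cells were compared in 3 populations: early GC, activated and memory-like cells (E/A/M), light zone and dark zone cells (LZ and DZ), and plasma cells and plasmablasts (PC/PB). A list of 6 GC identity markers summed to 730 to 747 CPM (counts divided by the total counts of the summed cells and scaled to a common size) in LZ and DZ cells of the 3 CD45.2+ Dock8 wt/wt mice and to 105 to 138 CPM in their E/A/M cells, so these markers were low in E/A/M cells although all cells came through the CD95 gate. Each count is 1 molecule tagged at its 3′ end, so levels of different genes are not inflated by transcript length. In these summed counts, fewer positive cells and less RNA per cell cannot be told apart, which is why the shares of positive cells are given further on.

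Of the 10 genes, 8 shared a pattern, high in E/A/M cells and low in both GC zones. The summed level of the set in CD45.2+ Dock8 wt/wt cells was 2316 ± 145 CPM in E/A/M, 573 ± 56.1 CPM in LZ and DZ and 527 ± 93.7 CPM in PC/PB cells (SD, n = 3 mice). Within a mouse, E/A/M cells held 4.05 ± 0.191 times the summed level of LZ and DZ cells in the CD45.2+ sort and 7.63 ± 1.78 times in the CD45.1+ sort. PC/PB cells held 0.915 ± 0.102 and 1.14 ± 0.148 times that level, and these ratios rose to 1.40 and 1.77 when immunoglobulin and mitochondrial genes, which fill much of a plasma cell's RNA, were left out of the total. Thus E/A/M stood above the other populations in all 6 of these mouse-by-sort values, whereas the order of PC/PB and LZ and DZ changed with the total that counts were divided by. In the CD45.2+ wt/wt mice 13 myeloid markers summed to 155 to 168 CPM in E/A/M cells. They summed to 26.5 to 28.05 CPM in LZ and DZ and 114 to 165 CPM in PC/PB cells. Without cells holding 2 or more UMIs of T, NK or myeloid markers the E/A/M ratios were 4.01 (CD45.2+) and 6.56 (CD45.1+). The part of these markers was not tested.

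**Figure D1:**
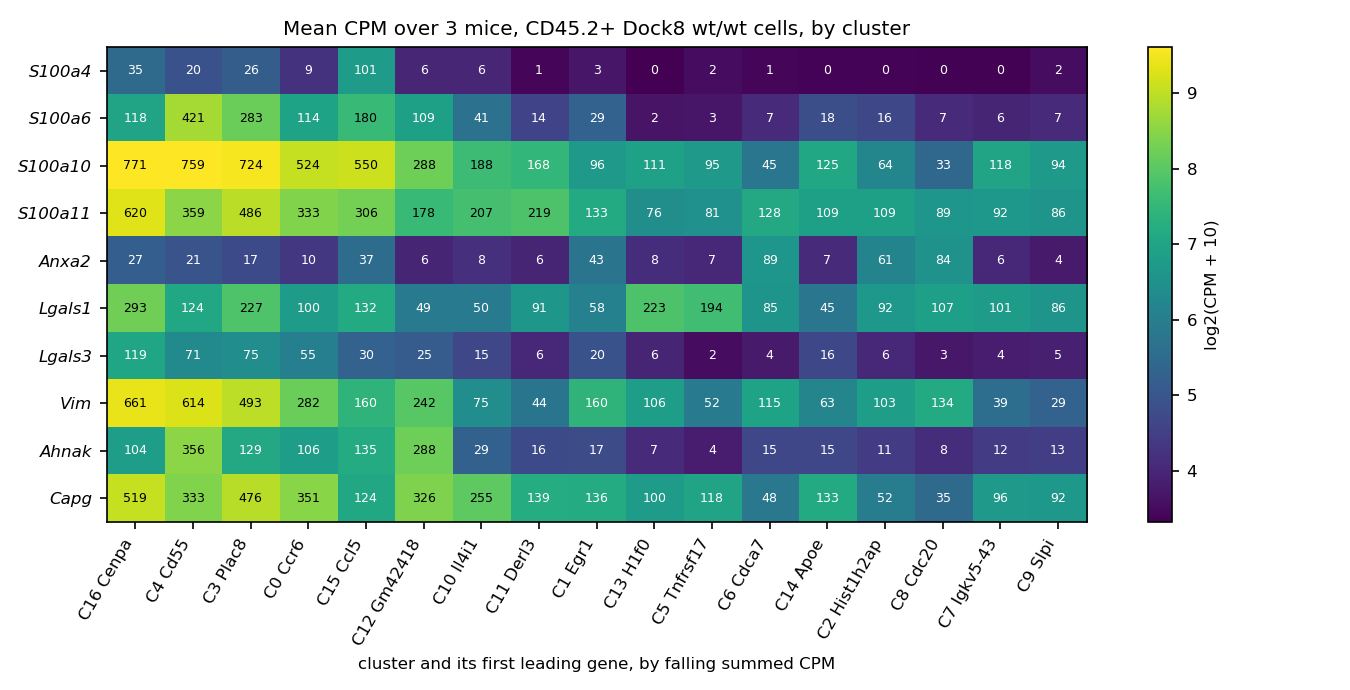
Mean CPM of the 10 genes (rows) in 17 clusters of CD45.2+ Dock8 wt/wt cells (columns, ordered by falling summed CPM and labeled with their first leading gene); each number is the mean over 3 mice with at least 10 cells and colors show log2(CPM + 10). The rows of 8 genes brighten together at the left, whereas Anxa2 is brightest in the dark zone clusters C6 and C8 and Lgals1 has further bright cells in C13 and C5.

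Among single clusters, the Cenpa, Knstrn cluster C16, named Activated2, held the most (3265 ± 637 CPM summed), followed by the Cd55, Clec2i cluster C4 (3079 ± 670), the Plac8, Zbtb32 cluster C3 (2935 ± 453) and the Ccr6 cluster C0 (1885 ± 186). The first 3 differed by less than the spread between mice, whereas C0 lay below each of them in its mean. C16 was the smallest cluster, with 86 cells of all groups. Its top 50 genes held 15 markers of the Activated2 list and 12 of a dark zone list (DZ4). C4 and C0 both took the EarlyGC1 name, but the leading genes of C0 include more markers of the Activated_Memory list (7 of its top 10) than of its own (5), so C0 is called here by its genes. The Slpi, Prg2 plasma cell cluster C9 held the least, at 417 ± 61.9 CPM.

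Apart from S100a4, which was at 0 in C13, S100a6 had the steepest gradient across the B cell clusters. It reached 421 ± 251 CPM in C4 and 283 ± 141 CPM in C3, against 7.0 ± 4.58 CPM in the Cdca7, Mcm3 dark zone cluster C6 and 2.50 ± 2.70 CPM in the cycling plasmablast cluster C13. The mice differed widely within C4, from 201 to 694 CPM. Ahnak was also highest in C4, with 356 ± 99.0 CPM in C4, 106 ± 6.01 CPM in C0 and 4.20 ± 4.54 CPM in the plasma cell cluster C5. Ahnak also stood out in the low-RNA Gm42418, Sspn cluster C12, at 288 ± 40.2 CPM, where S100a6 was at 109 ± 60.7 CPM and 13 myeloid markers summed to 134 to 434 CPM.

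S100a10 had the highest level of the 10 in E/A/M cells (607 CPM), whereas in LZ and DZ cells S100a11, Vim, Lgals1 and Capg were above it, and in PC/PB cells Lgals1. It was at 771 ± 135 CPM in C16, 759 ± 85.7 CPM in C4 and 724 ± 121 CPM in C3. Its lowest value was 32.9 ± 6.35 CPM in the mitotic Cdc20, Cenpf dark zone cluster C8. Capg resembled it, with 519 ± 88.9 CPM in C16 and 34.9 ± 6.67 CPM in C8, and Vim ran from 661 ± 65.9 CPM in C16 to 29.2 ± 13.6 CPM in C9. S100a11 was flatter, from 620 ± 188 CPM in C16 to 75.8 ± 26.8 CPM in C13. Lgals3 had a lower mean than Lgals1 in each cluster, at 119 ± 65.0 CPM in C16 and 1.62 ± 1.40 CPM in C5.

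S100a4, which binds non-muscle myosin, was, with Anxa2, one of the rarest transcripts of the set in E/A/M cells (10.5 to 20.4 CPM) and the one member that peaked in the co-sorted T cell cluster C15 (Ccl5, Trbc2), at 101 ± 119 CPM. In the B cell clusters it reached 34.9 ± 39.8 CPM in C16, and no UMI of it was found in C13. The values of S100a4 in C3 (14.2 to 44.4 CPM) and C4 (10.9 to 26.7 CPM) lay above those in C2 (0 to 1.19 CPM), whereas C16 (0 to 78.2 CPM) overlapped with the other clusters.

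Anxa2 and Lgals1 departed from the shared pattern. Anxa2, the partner of S100A10, peaked in the dark zone clusters, at 89.4 ± 11.3 CPM in C6, 83.9 ± 36.9 CPM in C8 and 61.3 ± 17.9 CPM in the histone-high C2, against 10.3 ± 1.62 CPM in C0 and 3.73 ± 2.05 CPM in C9. In C6 and C2 its lowest mouse (79.5 and 49.3 CPM) was above its highest mouse in C0 (11.5 CPM). The light zone cluster C1 came next after C2 in its mean, with mice at 33.3, 61.7 and 35.0 CPM, which overlapped with C2. Lgals1 had a second maximum outside E/A/M, at 223 ± 65.2 CPM in the cycling plasmablast cluster C13 and 194 ± 59.6 CPM in C5, close to the 227 ± 61.9 CPM of C3. The other plasma cell clusters ranged from 45.4 ± 29.2 CPM (C14) to 101 ± 16.6 CPM (C7).

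**Figure D2:**
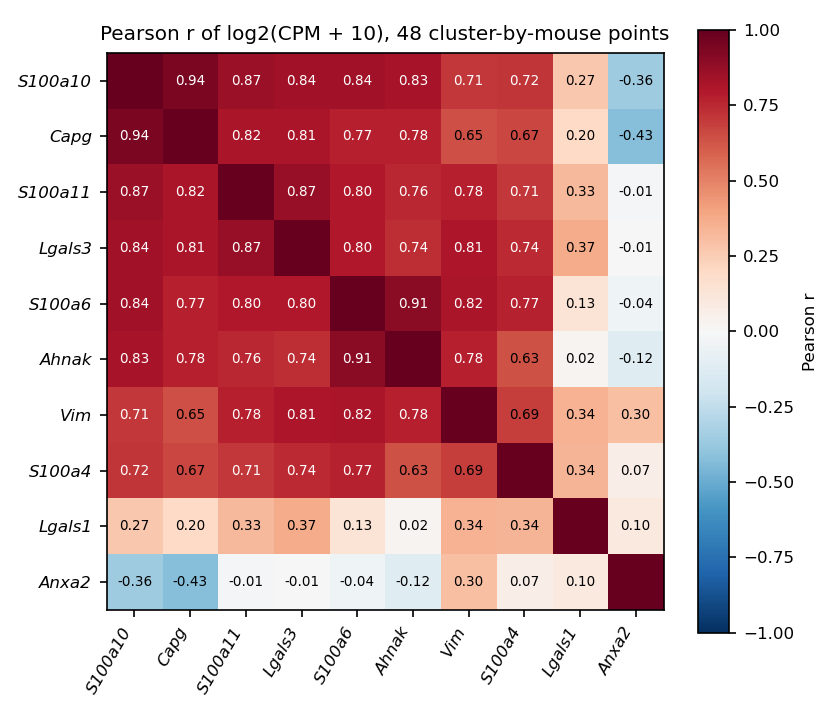
Pearson r between the 10 genes on log2(CPM + 10) over 48 points, 16 B cell clusters by 3 CD45.2+ Dock8 wt/wt mice. The first 8 genes have r of 0.63 or more with one another, whereas Lgals1 stays at or below 0.37 with all others and Anxa2 runs from -0.43 to 0.30.

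Across 48 cluster-by-mouse points of the CD45.2+ Dock8 wt/wt cells, the closest pairs were Capg with S100a10 (r = 0.94) and Ahnak with S100a6 (r = 0.91). These values are descriptive, since points of 1 mouse share the animal, all points share 1 mRNA library and the clusters differ in depth. S100a4 and S100a6, neighbors on chromosome 3, had r = 0.77, and S100a10 and S100a11 had r = 0.87. Anxa2 with S100a10, the subunits of 1 complex, had r = -0.36. Among 5101 other genes with a mean of at least 20 CPM, the genes most like the summed set were Pdlim1, which encodes a PDZ and LIM domain protein of actin fibers (r = 0.94), Ass1 (r = 0.90) and Armc3 (r = 0.90). S100a6 was closest to Klf2, a transcription factor of quiescent recirculating lymphocytes (r = 0.91), Pdlim1 and Rassf4. Ahnak was closest to Rasa3 (r = 0.94) and Arhgef18. S100a10 was closest to Mgst2, Bhlhe41 and Myl12b, Capg to Myl12b, Mgst2 and Mndal, S100a11 to Dnajc7, Ass1 and Ly6d, and Vim to Pdlim1, Rdh12 and Ostf1. Lgals3 was closest to Klf2, Pdlim1 and Ass1, and S100a4 to Pdlim1, Gatd1 and Itgam. Anxa2 instead ranked with Tuba1a, an α-tubulin (r = 0.90), and Hmgn1, a nucleosome-binding protein (r = 0.89). Lgals1 had no close companion, with Tmem223 the nearest at r = 0.74, followed by Tmem128 and Mlf2.

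Per cell, the set was broadly but thinly carried. With each cell thinned to 2000 UMIs, a CD45.2+ Dock8 wt/wt E/A/M cell had UMIs of a median of 3 of the 10 genes, and an LZ or DZ cell or a PC/PB cell of 1. No member was seen in 6.56% of those E/A/M cells, 37.9% of LZ and DZ cells and 40.6% of PC/PB cells, and 5 or more members in 14.1%, 0.571% and 0.346%. S100a10 gave a UMI in 62.7% of thinned E/A/M cells (87.7% unthinned, median 5774 UMIs per cell) against 10.9% of LZ and DZ cells (27.4% unthinned, median 8199 UMIs). S100a6 was more unevenly spread, found in 16.1% of thinned E/A/M cells against 2.18% of LZ and DZ and 1.11% of PC/PB cells. Unthinned, the 6.49% of E/A/M cells with 5 or more S100a6 UMIs held 68.5% of all its E/A/M UMIs, and the highest cell had 119. For S100a10 and Capg the cells with 5 or more UMIs were 30.8% and 14.3% and held 65.9% and 37.7%. Vim was in between, with 16% of cells holding 56.2% of its UMIs.

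S100a6-high cells formed a cluster of their own only when the 10 genes were allowed into the clustering. That EarlyGC2 cluster held 421 cells, of which 42.3% lay in C4, 27.6% in C3 and 25.4% in C0 when the genes were left out. By construction it was high in the set: in CD45.2+ Dock8 wt/wt mice its S100a6 level was 1208 ± 428 CPM and its summed level 5991 ± 581 CPM, against 78.3 ± 8.50 CPM and 1700 ± 50.9 CPM in EarlyGC1 of the same clustering. No test applies, as these genes built the cluster. EarlyGC2 cells were 8.92, 13.8 and 9.91% of E/A/M cells in the CD45.2+ wt/wt mice and 15.3, 37.0 and 14% in CD45.1+ cells of these animals. In the cpm/cpm mice they were 15.7, 32.3 and 22.6% of CD45.1+ E/A/M cells, whereas among CD45.2+ cells there were 0 of 19, 0 of 18 and 3 of 48, and the first 2 counts allow shares of up to 15.8% and 16.7% (counting error only).

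Does loss of DOCK8 alter the set within a population? In E/A/M cells of the CD45.2+ sort none of the 10 genes was called between Dock8 cpm/cpm and wt/wt (edgeR's quasi-likelihood test, Benjamini-Hochberg adjusted p below 0.05 over all genes), 3 had an unadjusted p below 0.05 and DESeq2 also called none. Over all 8786 genes tested, 0.285% were called. S100a6 was at 131, 263 and 191 CPM in the wt/wt mice and at 184, 117 and 117 CPM in the cpm/cpm mice, so the groups overlapped. Its log2 difference was -0.72 ± 0.26 (SE, adjusted p = 0.352). Without a filter on low counts it was called (-0.77, adjusted p = 0.0199), as it was without wt/wt replicate 1 (-0.89, adjusted p = 0.0176) or 3 (-0.65, adjusted p = 0.0171), but not without wt/wt replicate 2 (-0.42, adjusted p = 0.417). With the other hashtag rules, which kept more cpm/cpm cells, it was -0.29 (3-fold lead, adjusted p = 0.741) and -0.21 (normalized over each cell, adjusted p = 0.816). Ahnak (-0.50 ± 0.22, adjusted p = 0.528) and Capg (-0.28 ± 0.14, adjusted p = 0.567) had the same sign. Capg was at 365 to 385 CPM in the wt/wt and 318 to 371 CPM in the cpm/cpm mice, whose ranges overlapped. For S100a10 and Vim the direction depended on the scaling. By CPM each cpm/cpm mouse was above each wt/wt mouse, with 636 to 741 CPM of S100a10 and 402 to 477 CPM of Vim against 553 to 635 CPM and 382 to 397 CPM. The fitted log2 differences, which use TMM-scaled library sizes, were 0.0082 ± 0.12 and -0.0014 ± 0.13. The median log2 difference over the 10 genes was -0.25, beside -0.05 over all genes tested, although their summed level was 2327 ± 185 CPM in the cpm/cpm and 2316 ± 145 CPM in the wt/wt mice. S100a4 rested on 3 UMIs in the cpm/cpm cells, all from 1 mouse. These values came from 18 to 48 cpm/cpm and 645 to 1065 wt/wt cells per mouse.

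**Figure D3:**
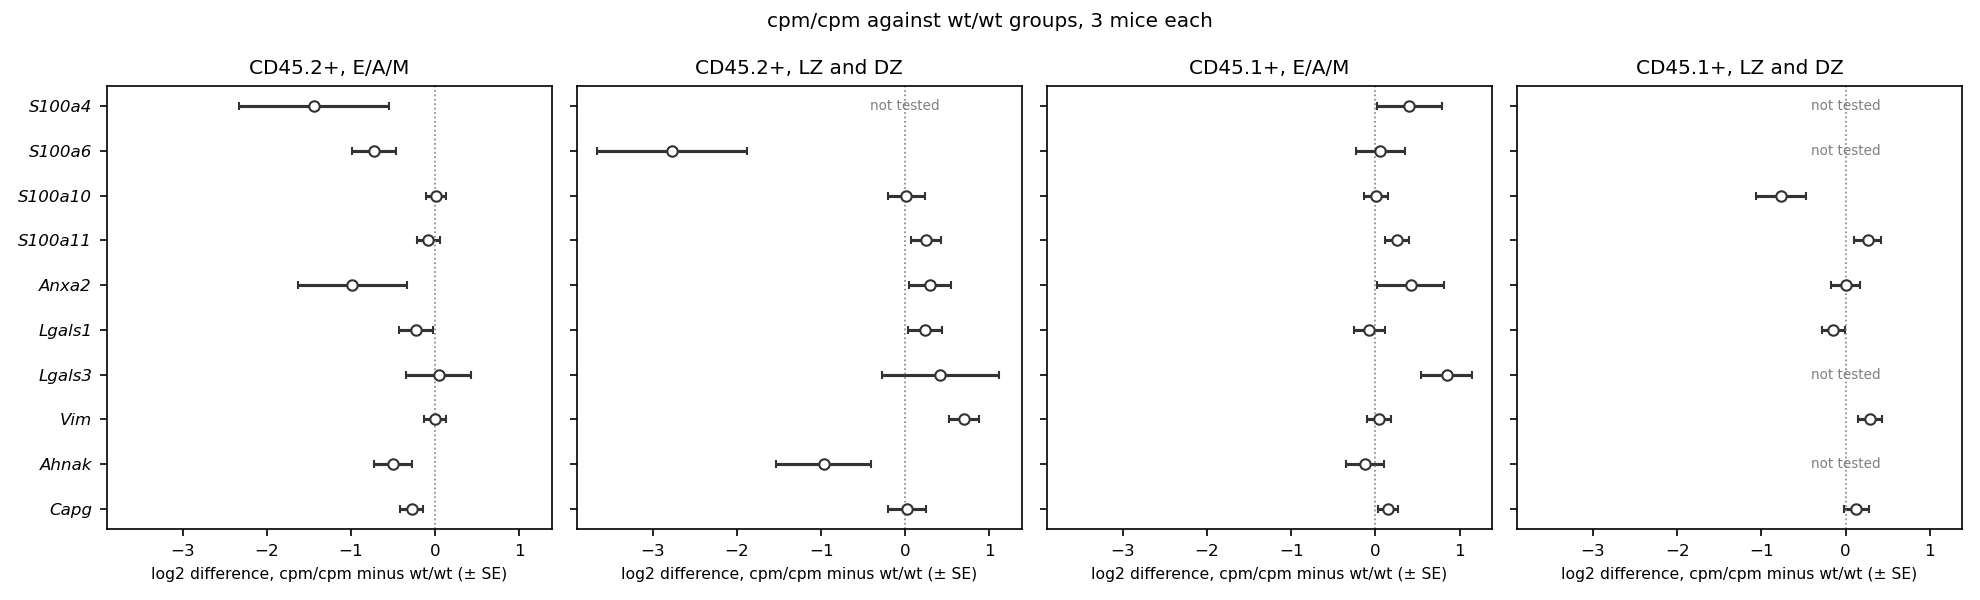
Log2 difference (point, ± SE) between the Dock8 cpm/cpm and wt/wt groups of 3 mice each for CD45.2+ cells, and for CD45.1+ Dock8 wt/wt cells that shared a host with them, in E/A/M and in LZ and DZ cells; filled points would mark an adjusted p below 0.05. No point is filled, and S100a6 in CD45.2+ cells lies at -0.72 in E/A/M.

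In LZ and DZ cells of the CD45.2+ sort 9 of the 10 genes passed the filter on low counts and none was called (2 with an unadjusted p below 0.05, none with DESeq2), where 0.0106% of all genes were called. Vim came closest. It was at 104, 141 and 105 CPM in the wt/wt mice and at 160, 264 and 192 CPM in the cpm/cpm mice, all 3 above the highest wt/wt mouse, and its log2 difference was 0.70 ± 0.18 (unadjusted p = 5.1e-04, adjusted p = 0.437). Without the filter on low counts Vim was called (0.64, adjusted p = 0.0259). By cluster, the light zone cluster C1 had Vim at 204, 968 and 534 CPM in 9, 5 and 13 cpm/cpm cells against 164, 167 and 149 CPM in the wt/wt mice. In cpm/cpm mouse 2 the 5 C1 cells gave 33 of the 49 Vim UMIs of its LZ and DZ cells. In the other light zone cluster, the Il4i1, Mir155hg cluster C10, the ranges overlapped. Vim there was at 133, 66.8 and 39.6 CPM in 11, 2 and 7 cpm/cpm cells against 55.4, 88.5 and 82.2 CPM. In the dark zone cluster C2 the ranges overlapped too, at 95.2, 127 and 95.7 CPM in 7, 3 and 8 cpm/cpm cells against 102, 113 and 95.1 CPM. S100a6 had the estimate farthest from 0 (-2.77 ± 0.89, adjusted p = 0.656) but rested on 2 UMIs in the cpm/cpm cells, and with the other hashtag rules it was -0.76 (3-fold lead, adjusted p = 0.823) and -0.90 (normalized over each cell, adjusted p = 0.694). PC/PB cells were not tested by genotype under any hashtag rule. Under the one used here the 3 cpm/cpm mice gave 1, 5 and 7 of them.

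The CD45.1+ cells of the same hosts, all Dock8 wt/wt, gave the background of this comparison. None of the members was called by partner genotype, among 10 tested in E/A/M (0% of all 4596 genes called), 6 in LZ and DZ (0% of 8147) and 5 in PC/PB (0.0208% of 4807). At an unadjusted p below 0.05 there were 1, 2 and 2 members and 174, 363 and 286 genes, and DESeq2 called no member. Lgals3 had the highest E/A/M estimate, 0.84 ± 0.30 (adjusted p = 0.996), with 73.9, 108 and 38.2 CPM beside wt/wt and 46.8, 104 and 169 CPM beside cpm/cpm partners, which overlapped. Vim in LZ and DZ cells was at 94.4 to 145 CPM and 132 to 173 CPM (0.29 ± 0.14), and S100a10 there was at 18.8 to 19.7 CPM and 4.17 to 17.1 CPM (-0.77 ± 0.30), without overlap, but with an adjusted p of 1.

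The difference between CD45.2+ cpm/cpm and wt/wt cells was also tested after subtracting the CD45.1+ cells of the same mouse, with the same CD45.2+ counts as above. No member was called in E/A/M (10 tested, 1.12% of all genes called, 3 members with an unadjusted p below 0.05, none with DESeq2) or in LZ and DZ (9 tested, 0.0112% of genes called, 3 members with an unadjusted p below 0.05, none with DESeq2). For S100a6 in E/A/M this value was -0.75 ± 0.29 (adjusted p = 0.297). It was called without a low-count filter (-0.84, adjusted p = 0.00598), without wt/wt replicate 2 (-1.17, adjusted p = 9.3e-04) and without cpm/cpm replicate 1 (-1.19, adjusted p = 0.0471), and was -0.28 without cpm/cpm replicate 2 (adjusted p = 0.881). Capg followed with -0.39 ± 0.15 (adjusted p = 0.322). In the neighboring gene lists 1 gene was called, the actin-sequestering Tmsb4x in E/A/M (-0.31 ± 0.08, adjusted p = 0.017).

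**Figure D4:**
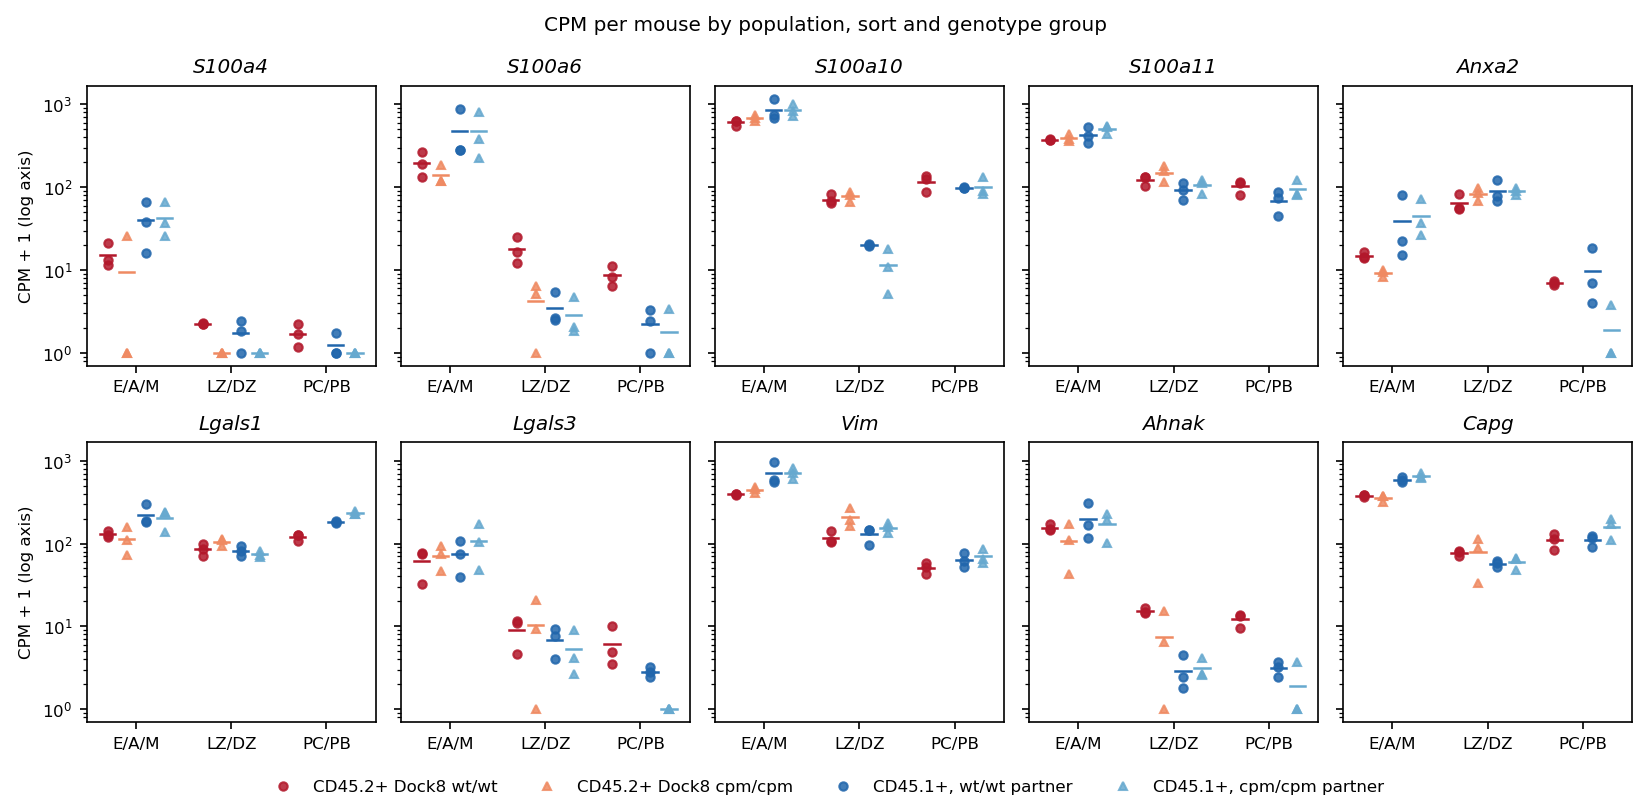
CPM + 1 on a log axis for each gene and mouse in E/A/M, LZ and DZ (LZ/DZ) and PC/PB cells; circles are mice of the wt/wt group, triangles of the cpm/cpm group, red shades CD45.2+ and blue shades CD45.1+ cells, and bars the mean of 3 mice (mice with under 10 cells are left out). S100a6 and Ahnak fall by 1 or more decades from E/A/M to LZ/DZ, Anxa2 rises, and CD45.1+ cells lie above CD45.2+ cells for Capg in E/A/M.

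How did BCL2.Tg CD45.2+ cells differ from CD45.1+ cells of the same animals? In E/A/M cells of the 3 wt/wt mice, 7 of the 10 genes were lower in the CD45.2+ sort and none was higher, where 4.02% of all 9434 genes tested were called. DESeq2 called 4. All 10 estimates were below 0, with a median of -0.78 beside 0.01 over all genes. Capg had the smallest p, at 385, 385 and 365 CPM in CD45.2+ against 577, 643 and 552 CPM in CD45.1+ cells, without overlap (log2 difference -0.72 ± 0.07, adjusted p = 9.0e-07, lower in 3 of 3 mice). Vim was at 397, 396 and 382 CPM against 552, 968 and 583 CPM, again without overlap (-0.88 ± 0.11, adjusted p = 1.5e-05, 3 of 3 mice). S100a6 was at 131, 263 and 191 CPM against 277, 888 and 279 CPM (-1.22 ± 0.15, adjusted p = 1.3e-05, 3 of 3 mice). The CD45.1+ cells of mouse 2 stood far above the other mice for S100a6, S100a10 (1171 CPM) and Ahnak (304 CPM), and S100a6 stayed called without that mouse (-0.80). The 13 myeloid markers summed to 155 to 168 CPM in CD45.2+ and 173 to 210 CPM in CD45.1+ E/A/M cells of these mice, and their part was not tested.

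Lgals1 was lower as well, at 127, 139 and 120 CPM in CD45.2+ against 181, 302 and 185 CPM in CD45.1+ cells, without overlap (-0.83 ± 0.11, adjusted p = 4.4e-05). S100a10 was lower by a smaller margin (-0.56 ± 0.10, adjusted p = 8.8e-04). The rare S100a4 (-1.37 ± 0.33, adjusted p = 0.0163) and Anxa2 (-1.28 ± 0.33, adjusted p = 0.0313) were also called, but Anxa2 no longer without mouse 2 (-0.46, where mouse 2 had 79.5 CPM in CD45.1+ cells) and S100a4 no longer without mouse 1 (-0.63). The estimate of Anxa2 also lost its call without cells holding 2 or more UMIs of T, NK or myeloid markers (-0.69) and without the 6% of cells with the most UMIs (-1.17). Ahnak (-0.37, adjusted p = 0.164), S100a11 (-0.28, adjusted p = 0.108) and Lgals3 (-0.37, adjusted p = 0.216) did not pass. Among 21 actin-binding genes 4 were lower and none higher (Actg1, Coro1a, Tmsb4x and Cfl1, with Actg1 at -0.60), and among 13 homing and adhesion genes 4 were lower and none higher (Klf2, Emp3, Itga4 and Itgb1).

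The clusters within E/A/M were also taken alone, and the difference between them was not tested. Each cluster was a separate fit on fewer cells, and its share of all genes called is not given here. The counts of called members are therefore not comparable between clusters. In C0, the largest, 2 members were called, Capg (-0.40) and Vim (-0.45), and the estimate of S100a6 was 0.26 (adjusted p = 0.653). In C3 there were 6, with S100a6 at -1.07 and Anxa2 at -1.43, and in C4 there were 3 (Capg, Vim and S100a6, at -1.12). The mix of cells also differed between the sorts. C3 gave 146, 114 and 209 of the 1065, 942 and 645 CD45.2+ E/A/M cells. Among CD45.1+ cells of these mice C3 gave 26, 27 and 133 of 99, 82 and 270. C4 gave 257, 296 and 58 CD45.2+ and 12, 19 and 20 CD45.1+ cells. In each mouse C3 took a larger share of CD45.1+ cells, and C4 and C0 a smaller one. The part of this mix in the lower levels of CD45.2+ E/A/M cells was not tested. E/A/M cells with 5 or more S100a6 UMIs were 6.49% in the CD45.2+ sort and 10.4% in the CD45.1+ sort. They held 68.5% and 89.0% of the S100a6 UMIs, at median depths of 5774 and 5274 UMIs. In the 3 mice of the cpm/cpm group all 10 genes were lower in CD45.2+ E/A/M cells (S100a6 at -1.91, Capg at -1.08).

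**Figure D5:**
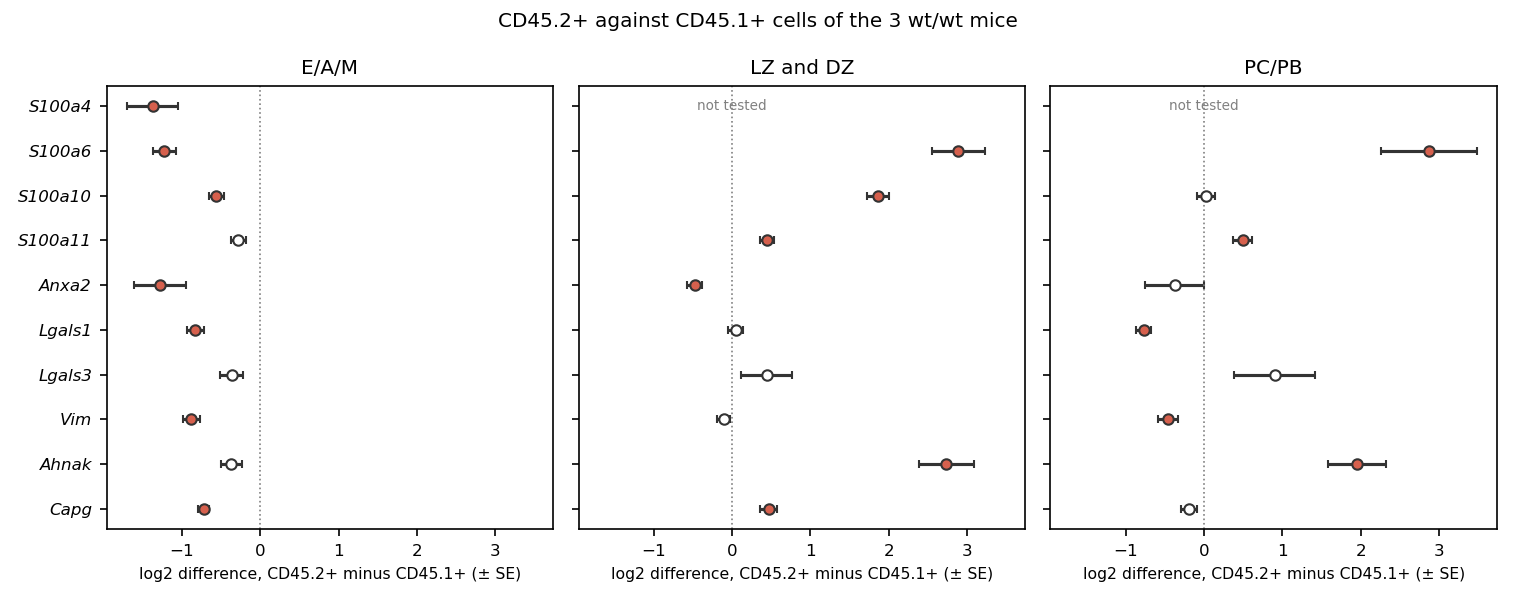
Log2 difference (point, ± SE) of CD45.2+ from CD45.1+ cells within the 3 wt/wt mice in E/A/M, LZ and DZ, and PC/PB cells; filled points have an adjusted p below 0.05. In E/A/M all 10 points lie below 0 and 7 are filled. S100a6 and Ahnak lie above 1.9 in both other populations, where they rest on 4 to 13 UMIs of CD45.1+ cells.

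In LZ and DZ cells 5 genes were higher and 1 lower in CD45.2+ cells, of 9 tested, where 15.1% of all 9904 genes were called. DESeq2 called 3 members. S100a6, Ahnak and Lgals3 did not pass the filter on low counts among CD45.1+ cells alone, so they were testable through their level in CD45.2+ cells and their values are given as a description. Of the 6 members that passed in both sorts, S100a10, Capg and S100a11 were higher and Anxa2 was lower. S100a10 was at 80.8, 63.1 and 66.6 CPM in CD45.2+ against 18.8, 19.7 and 19 CPM in CD45.1+ cells, with no overlap (1.86 ± 0.14, adjusted p = 7.0e-21). S100a6 had 308 UMIs in CD45.2+ and 11 in CD45.1+ cells (2.89 ± 0.34), and Ahnak had 261 and 10 (2.74 ± 0.36). Capg (0.46 ± 0.10, adjusted p = 4.4e-04) and S100a11 (0.44 ± 0.09, adjusted p = 6.1e-05) were higher by less. Anxa2, which had its highest means in the dark zone clusters, was lower (-0.48 ± 0.10, adjusted p = 7.9e-05), at 55.7, 81.3 and 53.0 CPM against 78.5, 122 and 66.5 CPM. Lgals1 (0.05), Lgals3 (0.44) and Vim (-0.11) did not pass. In the mice of the cpm/cpm group 1 member, S100a10, was called (2.76). That separate fit rested on 34, 18 and 40 CD45.2+ cells, and its share of all genes called is not given here. Its count is therefore not comparable with that of the wt/wt mice.

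Markers of other states moved with this increase. In LZ and DZ cells S1pr1 (1.51) and Klf2 (0.85), genes of naive and memory cells, were called higher in CD45.2+ cells, and the 6 naive or memory markers summed to 443 to 562 CPM against 205 to 243 CPM, with all 6 above 0 in each mouse. Conversely the 6 GC markers summed to 105 to 138 CPM in CD45.2+ and 43.2 to 63.7 CPM in CD45.1+ E/A/M cells. E/A/M cells made up 36.1 to 53.1% of the CD45.2+ sort and 15.8 to 28.5% of the CD45.1+ sort in these mice, and hashtag doublets were 8048 of 14617 and 1562 of 4857 barcodes. The log2 difference of S100a10 was 2.27 without the 6% of cells with the most UMIs and 2.55 in the dark zone alone. The part of free RNA or mixed droplets in the increase was not tested.

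In PC/PB cells 5 of 9 genes tested were called, 3 higher and 2 lower in CD45.2+ cells, where 23.4% of all 9128 genes were called, and DESeq2 called 3 members. Lgals1 had the smallest p, at 125, 126 and 107 CPM in CD45.2+ against 176, 182 and 188 CPM in CD45.1+ cells, with no overlap (-0.77 ± 0.10, adjusted p = 2.3e-06). S100a6 (2.87 ± 0.61) and Ahnak (1.96 ± 0.37), the other 2 counted as higher, again did not pass the filter among CD45.1+ cells alone and are given as a description. They were at 5.47 to 10.2 and 8.67 to 12.8 CPM in CD45.2+ cells, and CD45.1+ cells gave 4 and 13 UMIs in all. S100a11 was higher (0.50 ± 0.12, adjusted p = 0.00356). Vim was called lower (-0.46 ± 0.13, adjusted p = 0.00996), but its estimate was 0.37 without the 6% of cells with the most UMIs. S1pr1 (1.41) and Klf2 (3.20) were higher here too, with the 6 naive or memory markers at 165 to 347 CPM against 23.5 to 119 CPM. The 6 GC markers were at 97.6 to 113 CPM against 21.8 to 31.7 CPM. The part of these markers was not tested. No member was called in C5 or C7 alone, the plasma cell clusters with enough cells of each mouse, where Lgals1 had estimates of -0.38 and -0.05. The mix of clusters within PC/PB also differed between the sorts. C5, where Lgals1 was high, gave 40, 80 and 107 of the 370, 648 and 432 CD45.2+ cells. Among CD45.1+ cells of these mice C5 gave 35, 65 and 190 of 77, 137 and 307. The part of this mix in the lower Lgals1 level of all CD45.2+ PC/PB cells was not tested.

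Genes of the neighboring families were also called between the sorts. Of all genes tested, 23.4% were called in PC/PB and 15.1% in LZ and DZ cells. In PC/PB cells 11 of 21 actin-binding genes were higher and none lower (Actg1 at 1.78, Lcp1 at 1.54), whereas in LZ and DZ cells 5 of 20 were higher and 12 lower, among them Gsn, which encodes gelsolin (-0.85). Of the other S100 genes, S100a1 was lower in PC/PB cells (-0.98). Anxa5 was lower in PC/PB (-0.90) and Anxa4 in LZ and DZ cells (-1.06). The galectins Lgals8 (1.08) and Lgals9 (0.80) were higher in PC/PB cells, opposite in sign to Lgals1, and among lamins and plakins Macf1 was higher in PC/PB (0.57) and Lmnb1 in LZ and DZ cells (0.18). Of the homing and adhesion genes 7 were higher and 1 lower in LZ and DZ cells, and 6 higher and 4 lower in PC/PB cells.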

How the data were processed

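The authors counted UMIs per gene and hashtag counts per barcode with Cell Ranger 5.0.1 against mm10, and deposited raw counts for 4 libraries with a text file naming the mouse of each hashtag. Their later Seurat 4.0 objects were not used here. Barcodes in both the mRNA and hashtag tables were assigned to mice with HTODemux in Seurat 5.3.0 (quantile 0.99), and singlets with 100 to 5500 genes and under 10% mitochondrial counts were kept. Hashtag doublets were removed and no other doublet caller was run. Cells of both sorts were merged, normalized with sctransform 0.4.2 and clustered at resolution 0.9 on 30 principal components of 3000 variable genes, without the 10 genes and 8 sex-linked genes. The states are rebuilt, and differences from the study may come from that.

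Counts were summed per mouse, sort and population (at least 10 cells per mouse) and tested with edgeR 4.0.16 (quasi-likelihood, TMM, filterByExpr, R 4.3.3) over all genes, with the mouse as a block between sorts, since both sorts came from the same animals. DESeq2 1.42.0, other hashtag rules, filters, resolutions and leaving out each mouse were alternatives. CPM were computed from the summed counts with all genes in the total. The scripts were tested on simulated data. CPM and UMI shares carry counting error, since 57, 44 and 101 cells stood for the Dock8 cpm/cpm CD45.2+ mice.

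The members and gene lists were chosen with earlier results of these data known. Named were the 10 members, the 3 genes most like each by Pearson r of log2(CPM + 10), and called genes of related lists. Klf2 and S1pr1 belong to those lists. Some genes that this rule names are not reported here. Each mouse is 1 replicate, so p-values by genotype group measure the spread between 3 mice per group. Between the sorts, and for the interaction, p-values measure the spread of the differences within mice. Each sort was 1 mRNA library, so no p-value between the sorts covers the spread between libraries.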

Additional observations from a re-analysis of the deposited data

How the results depend on the processing

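The 7 of 10 members lower in CD45.2+ E/A/M cells became 4 with DESeq2, 2 in cluster C0 and 3 in C4 alone. In LZ and DZ cells the 6 called became 3 with DESeq2, 1 in the mice of the cpm/cpm group, 3 in C2 and 2 in C8. In PC/PB cells the 5 called became 3 with DESeq2, 0 in C5 and 0 in C7, and leaving out 1 mouse at a time gave 3 to 5 (3 without replicate 3). The 6 and the 5 each include S100a6 and Ahnak. These did not pass the low-count filter among CD45.1+ cells alone and are given as a description only. The mouse paired the sorts. Without the replicate block 5 members were called in E/A/M, 4 in LZ and DZ and 3 in PC/PB cells. The single clusters and single zones were chosen after seeing the data. Their fits, and that of the cpm/cpm mice, rested on fewer cells. Their counts of called members therefore cannot be set beside those of the main fits.

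For Dock8 genotype in CD45.2+ cells, 1 member was called without a low-count filter in E/A/M (S100a6) and 1 in LZ and DZ (Vim), and leave-one-out gave 0 to 1 in E/A/M. The interaction gave 1 without the filter and 0 to 1 with leave-one-out.

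The E/A/M to LZ and DZ ratio in CD45.2+ cells was 3.71 with a 3-fold hashtag rule, 3.34 with hashtags normalized over each cell and 3.85 without the 6% of cells with the most UMIs. The PC/PB ratio was 1.40 and 1.77 without immunoglobulin and mitochondrial genes. Signs turned between the sorts in E/A/M for S100a6 (0.26) and Anxa2 (0.76) in C0 and for Anxa2 with hashtags normalized over each cell (0.0093). In LZ and DZ they turned for S100a11 in C8 (-0.035) and Vim with hashtags normalized over each cell (0.26). In PC/PB they turned for Vim without the 6% of cells with the most UMIs (0.37) and in C7 (1.06), and for Anxa2 without cells holding 2 or more UMIs of T, NK or myeloid markers (2.11). The causes were not tested. Of 1567 values of single genes, 1485 kept their side of the threshold (149 of them uncalled values that changed sign), 48 lost and 26 gained a call. The fit of all 4 groups was not run for the interaction or for PC/PB cells, nor the cpm/cpm mice for PC/PB cells. The Dock8 cpm/cpm values rest on 44 to 101 CD45.2+ cells per mouse.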
